A study of Arabidopsis thaliana with 12 samples.

Results

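Hop3, ATHSP22.0 and AT1G54050 are 3 chaperone genes of Arabidopsis thaliana, 1 encoding a co-chaperone and 2 encoding small heat shock proteins. They were chosen from values measured on these same arrays, and each was then found by its symbol or locus code in the probe annotation, with the condition that its probe set names exactly 1 gene. All 3 were found, out of 13286 genes with such a probe set and 22746 probe sets tested in all. Because the arrays chose them, their levels and differences are given below as a description, with no test. The choice named genes and set no threshold on a value, so no gene lies just inside or outside it.

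Small heat shock proteins bind unfolding proteins without using ATP and hold them in a state from which other chaperones can refold them. HSP70 and HSP90 do that refolding with ATP, and co-chaperones of the HOP family hold the pair together so that a client protein passes from HSP70 to HSP90. In plant seedlings many of these genes are known for low transcript levels at rest and a steep rise under heat, driven by heat shock transcription factors.

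Total RNA of whole seedlings was hybridised to 12 one-colour Affymetrix arrays in 4 groups of 3 biological replicates. The first group was wild type Col-0 before cordycepin, at 0 min, and the next was Col-0 collected 60 min after 150 mg/l cordycepin, an analogue of adenosine that ends RNA synthesis once built into a transcript. The other groups were the mutant xrn3-8, which carries an allele of the nuclear exoribonuclease gene XRN3, at the same 2 times. Every group was grown on MS plates in long days and harvested at 14 days, and no group at 60 min went without cordycepin in the labels, so cordycepin cannot be told apart from time and handling in any comparison over time. The labels give 1 mutant line and no detail of its allele, and XRN3 is not among the probe sets named here, so the genotype labels were not checked by its signal.

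The values are log2 signals that had been normalized between arrays before deposition, so each difference is read against the bulk of the probe sets on an array. The median signal was 4.63 to 4.87 over the 12 arrays and the lower quartile 2.98 to 3.10, which serves below as a mark of dim probe sets because no detection calls were used here. Arrays of 1 group correlated at 0.995 to 0.998 over all probe sets. Whole seedlings mix many cell types, so fewer cells of a type and less RNA per cell cannot be told apart. Of the markers of green tissue, 2 of 6 were measured, and the log2 of their summed signal in Col-0 ranged from 13.36 to 13.46 at 0 min and from 13.01 to 13.15 at 60 min. In xrn3-8 it ranged from 13.57 to 13.60 and from 13.36 to 13.49. Of the root markers, 2 of 4 were measured, with summed signals of 11.21 to 11.26 and 11.23 to 11.38 in Col-0, and 11.15 to 11.44 and 10.74 to 10.99 in xrn3-8, at 0 and 60 min. No marker of seed tissue was among the named probe sets.

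Hop3 (AT4G12400, probe set 254839_at) encodes a heat-inducible member of the HOP family. Before cordycepin its log2 signal was 8.75, 8.56 and 8.88 on the 3 Col-0 arrays. On the 3 xrn3-8 arrays before cordycepin it was 7.36, 7.85 and 8.31, all lower than every Col-0 array. After cordycepin it was 8.97, 9.41 and 9.12 in Col-0 and 8.88, 8.93 and 9.04 in xrn3-8. The arrays of both genotypes overlapped at 60 min, whereas they were apart at 0 min. In order of mean level, xrn3-8 before cordycepin was lowest at 7.84 ± 0.475 (SD, n = 3), followed by Col-0 before it at 8.73 ± 0.161. The next mean was that of xrn3-8 after cordycepin at 8.95 ± 0.082, whose lowest array equalled the highest Col-0 array from before it, and the highest was Col-0 after cordycepin at 9.17 ± 0.224.

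The log2 difference of Hop3 between xrn3-8 and Col-0 was -0.89 ± 0.174 (SE) before cordycepin, so that the mutant held 54% of the Col-0 signal. After cordycepin it was -0.22, or 86.1% of the Col-0 signal, and it ran from -0.32 without replicate 1 of Col-0 after cordycepin to -0.10 without replicate 2. Over the 60 min the signal of Hop3 was 1.35-fold higher in Col-0, a log2 change of 0.44, and 2.16-fold higher in xrn3-8, a log2 change of 1.11. The change in xrn3-8 exceeded that in Col-0 by 0.67 ± 0.246 on the log2 scale. The lower level of Hop3 in xrn3-8 before cordycepin thus stood beside a larger change in that genotype, and both values draw on the same 3 arrays of xrn3-8. These arrays were the most spread of the 4 groups. Without replicate 1 of xrn3-8 before cordycepin the difference before cordycepin was -0.65 and the excess change 0.43; without replicate 3 they were -1.13 and 0.91.

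ATHSP22.0 (AT4G10250, probe set 255811_at) encodes a small heat shock protein of the endoplasmic reticulum. Before cordycepin its log2 signal was 4.26, 3.81 and 4.38 in Col-0, and 4.78, 5.05 and 5.28 in xrn3-8. After cordycepin it was 4.83, 4.88 and 4.98 in Col-0, and 6.02, 6.08 and 6.03 in xrn3-8. Every xrn3-8 array was above every Col-0 array at the same time, and every array after cordycepin was above every array of its genotype from before it. The group means ran from 4.15 ± 0.30 (SD, n = 3) in Col-0 before cordycepin to 6.04 ± 0.032 in xrn3-8 after it. Between them lay Col-0 after cordycepin at 4.90 ± 0.076 and xrn3-8 before it at 5.04 ± 0.25, and these neighbours overlapped.

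The xrn3-8 signal of ATHSP22.0 was 1.85-fold that of Col-0 before cordycepin, a log2 difference of 0.89 ± 0.134 (SE), and 2.21-fold after it, a log2 difference of 1.15. Over the 60 min it was 1.68-fold higher in Col-0 (log2 0.75) and 2.01-fold higher in xrn3-8 (log2 1.01). The change in xrn3-8 exceeded that in Col-0 by 0.26 ± 0.189 on the log2 scale. That value was 0.13 without replicate 1 of xrn3-8 before cordycepin, 0.43 without replicate 2 of Col-0 before it and 0.12 under centring on Bacillus controls, described below. The genotype difference of ATHSP22.0 was thus present at both times, whereas that of Hop3 was smaller at 60 min than at 0 min.

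AT1G54050 (probe set 263150_at) encodes a class III small heat shock protein of the cytosol and nucleus. Before cordycepin its log2 signal was 8.91, 8.98 and 9.07 in Col-0, and 8.45, 8.92 and 9.11 in xrn3-8. The xrn3-8 arrays spanned the whole range of the Col-0 arrays at that time. After cordycepin it was 7.29, 7.57 and 7.27 in Col-0, and 8.69, 8.54 and 8.51 in xrn3-8. The 3 Col-0 arrays after cordycepin were below all others, and those of xrn3-8 lay inside the range of the same genotype before it. In order of mean level, Col-0 after cordycepin was lowest at 7.38 ± 0.168 (SD, n = 3), followed by xrn3-8 after it at 8.58 ± 0.096, xrn3-8 before it at 8.83 ± 0.34 and Col-0 before it at 8.99 ± 0.08. Each of these 3 upper groups overlapped its neighbour, but every xrn3-8 array after cordycepin was below every Col-0 array from before it.

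Over the 60 min the AT1G54050 signal in Col-0 came to 32.8% of its starting level, a log2 change of -1.61 ± 0.133 (SE), and in xrn3-8 to 84.3%, a log2 change of -0.25. The change in xrn3-8 was -0.44 without its replicate 1 from before cordycepin and -0.11 without its replicate 3. The xrn3-8 signal was therefore 2.30-fold that of Col-0 after cordycepin, a log2 difference of 1.20. Before cordycepin that difference was -0.16, or 89.5% of the Col-0 signal, and it turned to 0.03 without replicate 1 of xrn3-8 and was -0.30 without its replicate 3. The change in xrn3-8 exceeded that in Col-0 by 1.36 ± 0.189 on the log2 scale. Without any single array this value was 1.18 to 1.51. The green-tissue marker LHCB4.2, a light-harvesting protein gene, had the same order of changes: its log2 change was -1.27 in Col-0 and -0.67 in xrn3-8, and their difference was 0.59 ± 0.134 (adjusted p = 0.0118). RCA, the other green marker, had log2 changes of -0.02 and 0.01. The root marker PYK10 went the other way, with log2 changes of 0.06 in Col-0 and -0.45 in xrn3-8 and a difference of -0.51 ± 0.128 (adjusted p = 0.0204). The other root marker, EXPA7, was near the lower quartile, with group means of 3.15 to 3.62. It rose in Col-0 by 0.47 (adjusted p = 0.00183) and changed in xrn3-8 by -0.003, a difference of -0.47 in the direction of PYK10 that did not pass the test (adjusted p = 0.0697). The part of these tissue markers in the AT1G54050 values was not tested.

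**Figure D1:**
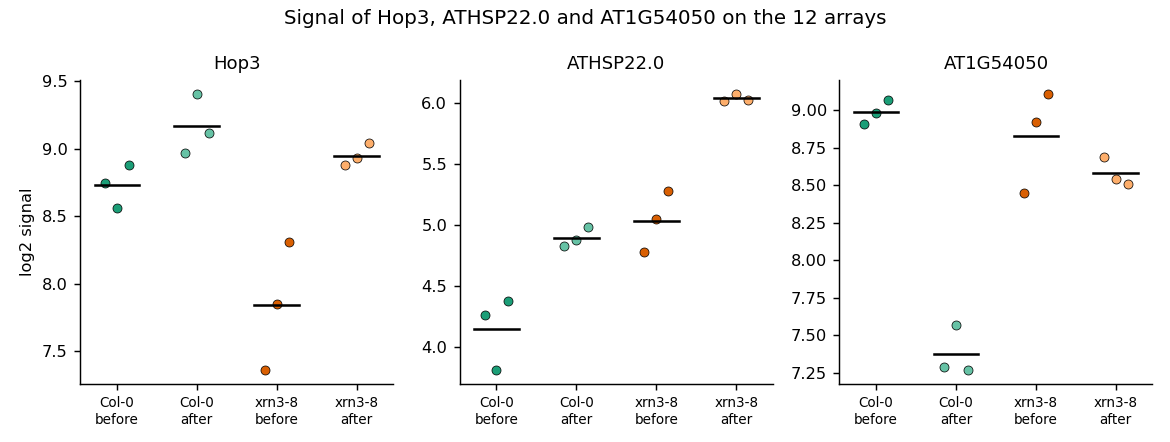
Log2 signal of Hop3, ATHSP22.0 and AT1G54050 on each of the 12 arrays; points are arrays, black bars the means of the 3 replicates, and each panel has its own vertical axis. Hop3 is lowest in xrn3-8 before cordycepin (mean 7.84), ATHSP22.0 highest in xrn3-8 after it (6.04) and AT1G54050 lowest in Col-0 after it (7.38).

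The 3 genes did not share 1 pattern over the 12 arrays. Pearson's r was 0.177 between Hop3 and ATHSP22.0, -0.45 between Hop3 and AT1G54050 and -0.076 between ATHSP22.0 and AT1G54050, given as a description of arrays that share 4 groups. In xrn3-8 before cordycepin all 3 were lowest on replicate 1. The same replicate was lowest for 25 of the 45 other measured chaperone and heat shock genes (55.6%), against 32.6% of all probe sets. In Col-0 after cordycepin replicate 1 was lowest for 24 of the 45 (53.3%), against 30% of all probe sets, and for Hop3 and ATHSP22.0 but not for AT1G54050. On the other small heat shock protein and HOP genes the median SD in xrn3-8 before cordycepin was 0.206, against 0.09 over all probe sets.

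The size of a change over time in these genes depended on how arrays were scaled. Of the 4 measured housekeeping genes, 3 rose with time in both genotypes under the deposited scaling: AT4G34270 by 0.52 in Col-0 and 0.61 in xrn3-8, AT2G28390 by 0.42 and 0.33, and PEX4 by 0.33 and 0.42. GAPC2 had log2 changes of 0.03 and 0.11, which did not pass the test. When each array was centred on the median of those 4 genes, the median of all probe sets changed by -0.34 in each genotype, and the log2 change of Hop3 became 0.03 in Col-0 and 0.68 in xrn3-8. That of ATHSP22.0 became 0.34 and 0.57, and that of AT1G54050 -2.02 and -0.68. Centring on the 27 probe sets of the Bacillus subtilis controls, many of them dim, gave a median of all probe sets of -0.29 in Col-0 and -0.41 in xrn3-8. Under it the changes were 0.07 and 0.60 for Hop3, 0.38 and 0.50 for ATHSP22.0, and -1.97 and -0.75 for AT1G54050. A centring shifts every gene of an array alike, so it did not change the order of the 3 genes within a genotype. The genotype differences moved less: that of Hop3 before cordycepin was -0.80 and -0.87 under these centrings, that of ATHSP22.0 0.98 and 0.91, and that of AT1G54050 after cordycepin 1.28 and 1.08. That of Hop3 after cordycepin was -0.15 and -0.34.

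**Figure D2:**
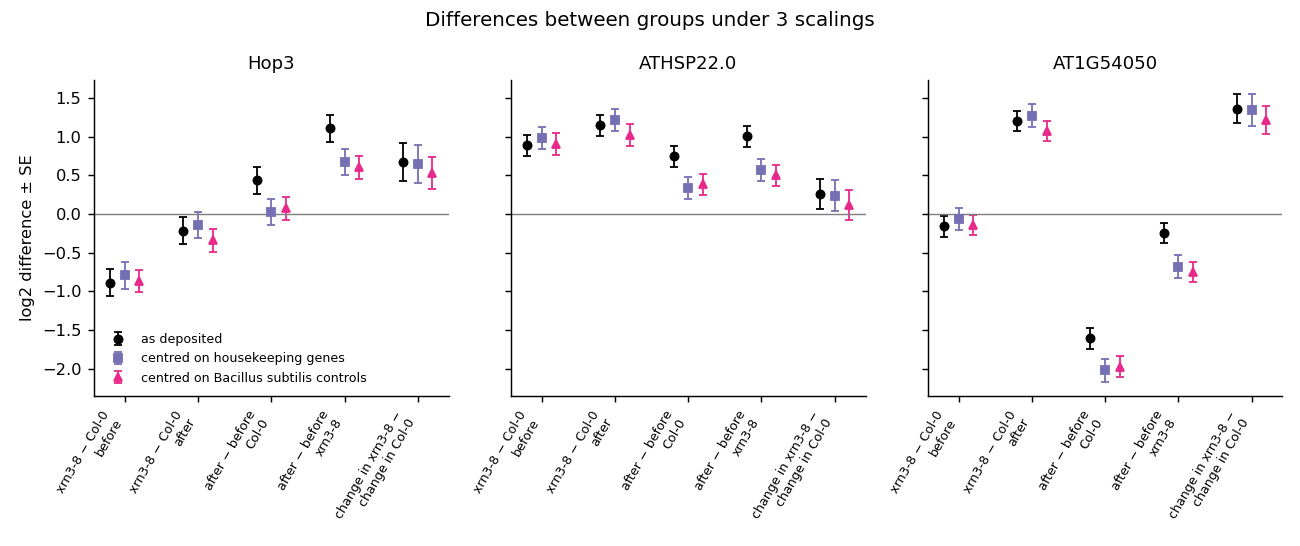
Log2 differences of Hop3, ATHSP22.0 and AT1G54050 in the 5 comparisons, with standard errors as bars, for the deposited values (black circles), arrays centred on housekeeping genes (squares) and arrays centred on Bacillus subtilis controls (triangles). The changes over time shift with the scaling, as for Hop3 in Col-0 from 0.44 to 0.03 and 0.07, while the genotype differences stay closer together.

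The other chaperone genes were read from lists of 142 genes, of which 45 had a named probe set. They were tested with limma in 1 fit over all probe sets, and a gene is called at an adjusted p under 0.05. No HSP90, HSP100 or heat shock factor gene of the lists was among the named probe sets, so those partners of Hop3 and the regulators of all 3 genes were not analysed here. The measured groups were 9 other small heat shock protein genes, 2 other HOP genes, 4 HSP70 genes, 11 J-domain protein genes, 8 further co-chaperone genes, 8 subunits of the cytosolic chaperonin CCT, 2 folding factors of the endoplasmic reticulum and the heat-induced HSA32. The comparisons of both genotypes before and after cordycepin share no arrays, and neither do the changes over time in Col-0 and xrn3-8. Any other pair of comparisons shares arrays, and values from such pairs are given side by side only.

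Before cordycepin, chaperone genes were lower in xrn3-8 more often than higher, as Hop3 was and ATHSP22.0 was not. Of the 45 genes, 13 were lower (28.9%) and 3 higher (6.67%), against 17.6% lower and 14.3% higher among all 22746 probe sets. The median log2 difference was -0.04 in the list and -0.01 over all probe sets. Without replicate 1 of xrn3-8 before cordycepin the counts were 8 lower and 5 higher, and without its replicate 3 they were 15 lower and 3 higher. Centring on housekeeping genes gave 9 lower and 5 higher, and on Bacillus controls 11 lower and 3 higher. Under these centrings 6445 and 5561 of all probe sets were called in either direction. Of the 2 other HOP genes, Hop2 was 8.28, 8.28 and 8.58 in Col-0 and 7.62, 7.84 and 8.04 in xrn3-8. All mutant arrays of Hop2 were below all wild type arrays, with a log2 difference of -0.55 ± 0.113 (adjusted p = 0.00134). Hop1 differed by -0.10 (adjusted p = 0.464), so its lower mean did not pass the test.

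Of the 9 other small heat shock protein genes, 3 were lower in xrn3-8 before cordycepin (33.3%) and none was higher. Among all probe sets 17.6% were lower and 14.3% higher. AT5G51440, which encodes a mitochondrial small heat shock protein, was 8.84, 8.66 and 8.94 in Col-0 and 7.22, 7.74 and 8.04 in xrn3-8. Its log2 difference of -1.15 ± 0.153 (adjusted p = 2.66e-05) was the largest fall of the list. The others were AT2G19310 at -0.55 (adjusted p = 0.000442) and AT4G21870 at -0.52 (adjusted p = 0.000228). The genes that did not pass were AT5G37670 at 0.37, AT1G52560 at 0.24, AT1G53540 at 0.20, AT5G47600 at 0.18, AT5G54660 at 0.06 and AT2G29500 at -0.25. Each of these values was below that of ATHSP22.0, whose log2 difference at this time was 0.89.

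Among the partners of these chaperones, 2 of 4 HSP70 genes (50%) and 4 of 8 co-chaperones (50%) were lower in xrn3-8 before cordycepin. So were 3 of 11 J-domain protein genes (27.3%), and none of these genes was higher. Over all probe sets 17.6% were lower and 14.3% higher, and such small groups were not tested against those shares. The cytosolic HSP70 gene AT3G09440 differed by -0.63 ± 0.089 (adjusted p = 4.68e-05). AT3G12050, which encodes an activator of the HSP90 ATPase, differed by -0.55 (adjusted p = 0.000188), and the J-domain protein gene AT2G20560 by -0.54 (adjusted p = 0.00344). The immunophilin gene AT5G48570 differed by -0.52 (adjusted p = 0.0164), a call lost without replicate 1 of xrn3-8 (-0.28, adjusted p = 0.0863) or without replicate 3 of Col-0. The 3 rises were in other classes. The chaperonin subunit genes AT5G16070 and AT3G11830 differed by 0.46 (adjusted p = 0.00095) and 0.45 (adjusted p = 0.000894), and the calreticulin gene CRT1b by 0.35 (adjusted p = 0.00592).

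After cordycepin the list no longer leaned to 1 side. Of the 45 genes, 10 were higher in xrn3-8 (22.2%) and 9 lower (20%), against 16.6% and 15.6% of all probe sets. The medians were 0.01 and 0.02. When arrays were centred on housekeeping genes 10 were higher and 3 lower, and on Bacillus controls 6 were higher and 10 lower. Among all probe sets 6663 and 6464 were then called in either direction. The balance of both directions is not settled. The small heat shock protein genes held 4 of the 10 rises and 2 of the 9 falls.

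The largest of these rises was that of AT5G37670, which encodes a peroxisomal small heat shock protein. Its log2 signal after cordycepin was 3.21, 3.50 and 3.86 in Col-0 and 5.18, 5.10 and 5.14 in xrn3-8, where the Col-0 values lie near the lower quartile. The log2 difference was 1.62 ± 0.167 (adjusted p = 1.37e-06). AT1G54050 showed the same kind of excess at this time, at 1.20 on the log2 scale. AT1G52560 was higher by 0.74 (adjusted p = 2.41e-05) and AT5G47600 by 0.46 (adjusted p = 0.000908), both from dim signals with group means of at most 4.02. The class I cytosolic small heat shock protein gene AT1G53540 was higher by 0.61 (adjusted p = 0.00934), a call lost without replicate 1 of Col-0 (0.42, adjusted p = 0.058). AT5G51440 was lower, at -0.54 (adjusted p = 0.0122), and the call was lost without replicate 3 of Col-0 after cordycepin (adjusted p = 0.0605). AT4G21870 was lower too, at -0.45 (adjusted p = 0.000734). AT5G51440 and AT4G21870 were thus lower in xrn3-8 in both of these comparisons, as was Hop2 at -0.39 (adjusted p = 0.0148), whose call was lost without xrn3-8 replicate 3 or without Col-0 replicate 2 or 3, and under housekeeping centring (adjusted p = 0.0773).

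Co-chaperones of HSP70 were also among the rises after cordycepin. Fes1C and Fes1A, whose proteins bind HSP70 and act on its nucleotide cycle, were higher in xrn3-8 by 0.93 (adjusted p = 0.000331) and 0.36 (adjusted p = 0.0231). The call of Fes1A was lost without Col-0 replicate 3 or without xrn3-8 replicate 1 or 3, and under Bacillus centring (adjusted p = 0.172). The J-domain protein gene AT5G01390 was higher by 0.49 (adjusted p = 0.000107). The lower genes included the HSP70 gene of the endoplasmic reticulum AT4G16660 at -0.43, the chaperonin subunit genes AT5G26360 at -0.38 and AT3G02530 at -0.34, and the J-domain protein gene of the endoplasmic reticulum ATERDJ3B at -0.31 (adjusted p = 0.00525). The calls of AT5G26360, AT3G02530 and ATERDJ3B were lost under housekeeping centring (adjusted p = 0.0509, 0.0648 and 0.0898). The chaperonin subunit gene AT3G11830 was higher, at 0.34 (adjusted p = 0.0066), but not under Bacillus centring (0.22, adjusted p = 0.161).

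**Figure D3:**
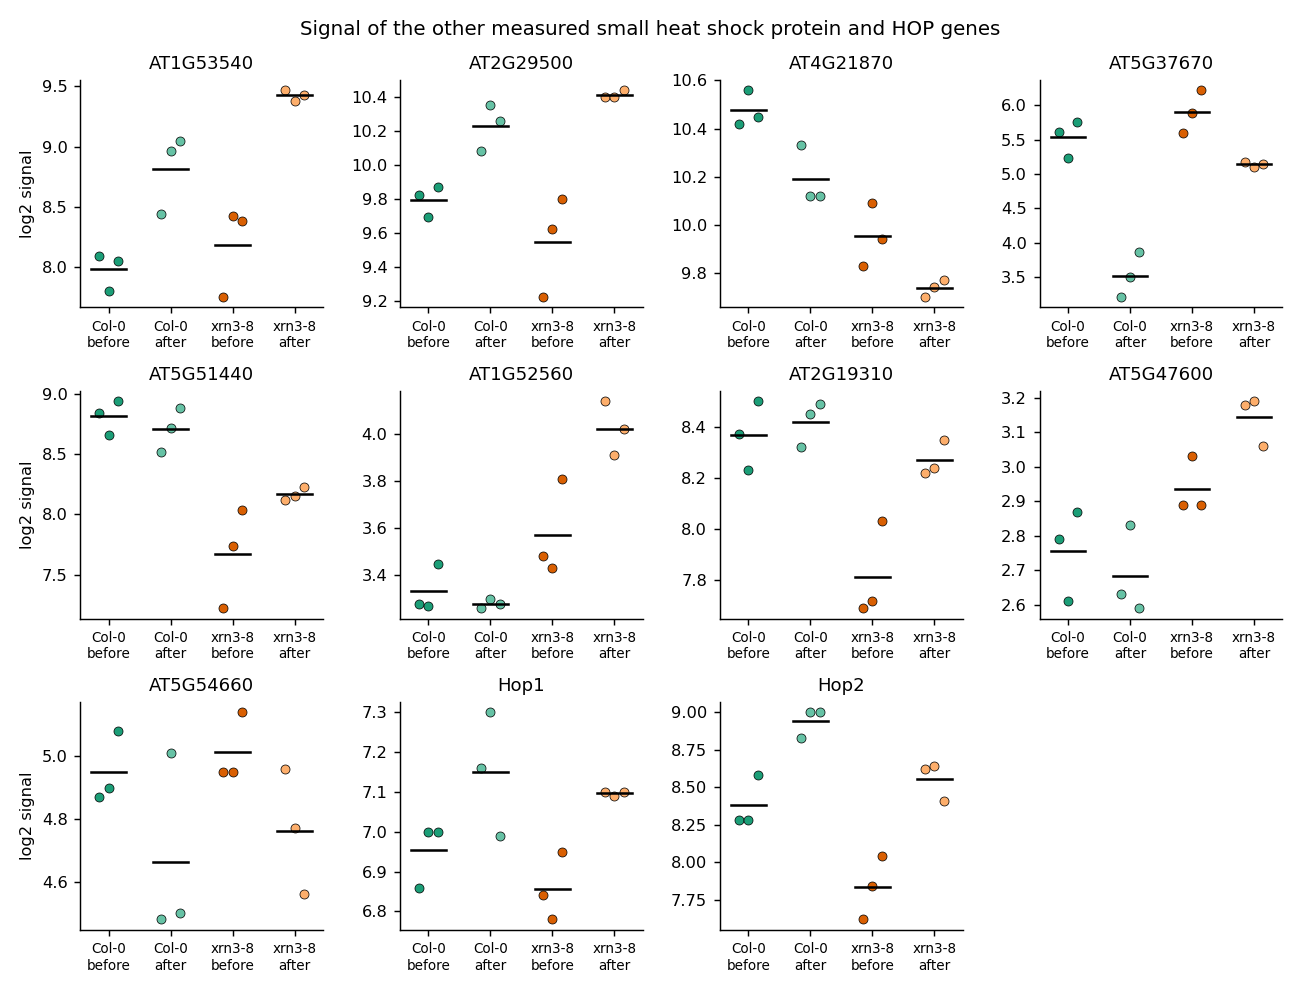
Log2 signal of the 9 other measured small heat shock protein genes and the 2 other HOP genes on each of the 12 arrays; points are arrays, black bars the means of 3 replicates, and each panel has its own vertical axis. AT5G37670 is lowest in Col-0 after cordycepin (mean 3.52), as AT1G54050 is, and AT5G51440 and Hop2 are lowest in xrn3-8 before it (7.67 and 7.83), as Hop3 is.

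Over the 60 min in Col-0, 21 of the 45 chaperone genes rose (46.7%) and 10 fell (22.2%), against 26.3% and 20.1% of all probe sets. The median log2 change was 0.22 in the list and 0.07 over all probe sets. With housekeeping centring 3 rose and 19 fell, and with Bacillus centring 4 rose and 19 fell. The median of all 22746 probe sets was then -0.34 and -0.29, with 14819 and 12295 of them called in either direction. A centring shifts all genes of an array alike, so the list median stayed above that of all probe sets by the same amount. The turn from rises to falls is therefore not particular to the list. AT1G53540, AT4G16660 and ATERDJ3B kept their called rises under both centrings. AT5G37670, AT4G21870, AT3G47940, Fes1C, Fes1A and AT1G10350 kept their called falls. Among the other small heat shock protein genes 2 rose and 2 fell. AT1G53540 rose by 0.84 ± 0.166 (adjusted p = 0.000567) and AT2G29500, also of class I, by 0.44 (adjusted p = 0.00644), the latter losing its call under both centrings. AT5G37670 fell, with a log2 change of -2.01 ± 0.167 (adjusted p = 5.37e-08), further than AT1G54050 at -1.61. AT4G21870 had a log2 change of -0.29 (adjusted p = 0.0132), a call lost without replicate 2 of Col-0 before cordycepin and without replicate 2 or 3 after it.

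Hop2 rose in Col-0 by 0.56 (adjusted p = 0.000637), beside 0.44 for Hop3, and Hop1 changed by 0.20 (adjusted p = 0.0787). The call of Hop2 was lost under both centrings, where its change was 0.15 and 0.20. The largest rises of the other groups were those of endoplasmic reticulum chaperones, the compartment of ATHSP22.0. AT4G16660 rose by 1.0 (adjusted p = 4.02e-07), ATERDJ3B by 0.74 (adjusted p = 8.22e-07) and the calnexin gene AT5G07340 by 0.64 (adjusted p = 4.19e-05). Of the 8 chaperonin subunit genes 6 rose (75%) and none fell, against 26.3% and 20.1% of all probe sets. AT5G26360 rose by 0.62. The call of AT5G07340 was lost under housekeeping centring, and those of all 6 chaperonin rises, AT5G26360 included, under both centrings. J-domain protein genes split into 4 rises and 4 falls, each 36.4% of the 11, and of these rises only that of ATERDJ3B stayed called under the centrings. Outside the small heat shock protein genes the largest fall was that of AT3G47940 at -1.86 ± 0.097 (adjusted p = 1.66e-10), followed by Fes1C at -0.86, AT1G10350 at -0.78 and Fes1A at -0.74.

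In xrn3-8, 27 of the 45 genes rose over the 60 min (60%) and 4 fell (8.89%), against 24.5% and 15.9% of all probe sets. The median log2 change was 0.32 in the list and 0.09 over all probe sets. With housekeeping centring 4 rose and 15 fell, and with Bacillus centring 3 rose and 19 fell. The median of all 22746 probe sets was then -0.34 and -0.41, with 14944 and 16933 of them called in either direction. Here too the list median stayed above that of all probe sets by the same amount. AT1G53540, AT2G29500 and AT5G48570 kept their called rises under both centrings. AT5G37670, AT3G47940, AT1G10350 and AT5G01390 kept their called falls. Of the other small heat shock protein genes, 5 rose and 1 fell. AT1G53540 was 7.75, 8.42 and 8.38 before cordycepin and 9.47, 9.38 and 9.43 after it. Its arrays did not overlap between the 2 times, with a rise of 1.24 ± 0.166 (adjusted p = 2e-05), close to that of Hop3 at 1.11 and ATHSP22.0 at 1.01. AT2G29500 rose by 0.87 (adjusted p = 2.69e-05), AT5G51440 by 0.50 (adjusted p = 0.016), AT2G19310 by 0.46 (adjusted p = 0.00176) and AT1G52560 by 0.45 (adjusted p = 0.00196). The last 3 changed by -0.01, -0.05 and -0.06 under Bacillus centring, and the call of AT5G51440 was lost without xrn3-8 replicate 1 before cordycepin (0.28, adjusted p = 0.0946). AT5G37670 fell in xrn3-8, with a log2 change of -0.76 (adjusted p = 0.00168).

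Both other HOP genes rose in xrn3-8 under the deposited scaling. Hop2 rose by 0.72 (adjusted p = 9.78e-05) and Hop1 by 0.24 (adjusted p = 0.0386), but the call of Hop2 was lost under both centrings and Hop1 changed by -0.20 and -0.27 under them. The call of Hop1 was also lost without xrn3-8 replicate 1 or 2 before cordycepin or without any 1 of the 3 xrn3-8 arrays after it. The immunophilin gene AT5G48570 rose by 1.02 ± 0.156 (adjusted p = 7.47e-05), AT4G16660 by 0.74, the J-domain protein gene AT4G28480 by 0.71 (adjusted p = 3.77e-05) and the HSP110-type gene AT1G11660 by 0.60 (adjusted p = 6.13e-05). The calls of AT4G28480 and AT1G11660 were lost under both centrings and that of AT4G16660 under Bacillus centring. Beside AT5G37670, the 3 other falls in xrn3-8 were in J-domain protein genes. AT3G47940 changed by -1.55 (adjusted p = 2.65e-09), AT1G10350 by -0.82 (adjusted p = 4.94e-06) and AT5G01390 by -0.41 (adjusted p = 0.000461). HSA32, a heat-induced gene of thermotolerance in Arabidopsis, rose in Col-0 by 0.29 (adjusted p = 0.0372) and in xrn3-8 by 0.46 (adjusted p = 0.00306). Neither rise of HSA32 was called under either centring.

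The test of the interaction asked whether the change over time differed between the genotypes. Of the 45 genes, 7 changed more positively in xrn3-8 (15.6%) and 1 more negatively (2.22%), against 5.08% and 2.97% of all probe sets. The median was 0.13 in the list and 0.02 over all probe sets. The count of 8 was 4 without replicate 1 of xrn3-8 before cordycepin, 13 without its replicate 3 and 4 without replicate 3 of Col-0 before cordycepin. Of the other small heat shock protein genes, 2 of 9 passed this test, and neither other HOP gene did.

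AT5G37670 had the largest interaction of the list, 1.25 ± 0.236 (adjusted p = 0.00381), beside 1.36 for AT1G54050. Both genes dropped further in Col-0 than in xrn3-8, and for AT5G37670 the low Col-0 values were near the lower quartile of all signals. Fes1A followed with 0.82 ± 0.16 (adjusted p = 0.00452). It changed from a mean of 8.91 to 8.17 in Col-0 and from 8.44 to 8.52 in xrn3-8. The J-domain protein gene AT2G20560 had 0.68 ± 0.178 (adjusted p = 0.0256) and the HSP70 gene AT3G09440 had 0.63 ± 0.126 (adjusted p = 0.0053). For both, xrn3-8 was lower before cordycepin and within 0.15 of Col-0 after it, as the means of Hop3 were within 0.22. AT1G52560 had 0.50 (adjusted p = 0.0384) and AT3G12050 had 0.44 (adjusted p = 0.0447). The calls of AT1G52560, AT3G12050 and AT2G20560 were each lost without several single arrays, at adjusted p up to 0.11, 0.118 and 0.0722. Under Bacillus centring the calls of AT3G09440 (0.49, adjusted p = 0.0663) and AT2G20560 (0.54, adjusted p = 0.0822) were lost. Those of AT1G52560 and AT3G12050 were lost under both centrings, at adjusted p = 0.118 and 0.226 for AT1G52560 and 0.166 and 0.312 for AT3G12050. SGT1A, a co-chaperone of HSP90 named here because it completes the count of 7 and not by the naming rule, had 0.43 (adjusted p = 0.0269). The call of SGT1A was lost under both centrings. The chaperonin subunit gene AT3G02530 was the 1 gene in the other direction, at -0.48 (adjusted p = 0.0115).

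**Figure D4:**
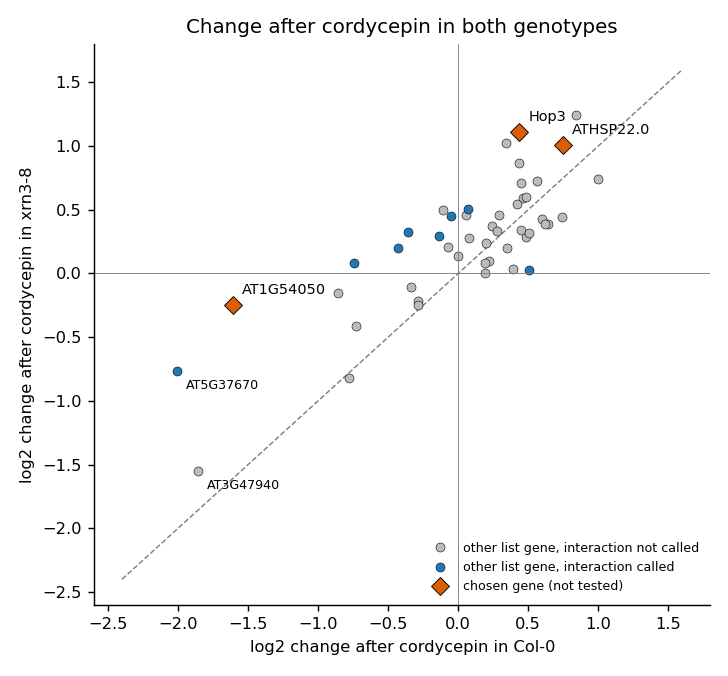
Log2 change after cordycepin in Col-0 (horizontal) and in xrn3-8 (vertical) for the 45 other measured chaperone and heat shock genes (circles, blue where the interaction was called) and for Hop3, ATHSP22.0 and AT1G54050 (diamonds); the dashed line marks equal change. AT1G54050 (-1.61 and -0.25) and AT5G37670 (-2.01 and -0.76) lie above the line on the left, Hop3 (0.44 and 1.11) above it on the right, ATHSP22.0 (0.75 and 1.01) closer to it, and AT3G47940 (-1.86 and -1.55) at the lower left.

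Genes whose pattern was most like each of the 3 were taken by Pearson's r over the 12 arrays, among the 1564 probe sets whose group means spanned at least 1 on the log2 scale. All of these correlations share the same arrays and groups and are a description only. A like order of group means follows at least in part from this choice. Nearest to Hop3 were AT4G12770, a gene of an auxilin-like protein with a J domain whose probe set is marked as matching more than 1 transcript (r = 0.957), AT5G48570 (0.939), Hop2 (0.936), AT1G02890, a gene of an AAA-type ATPase (0.931), and AT4G23470 (0.927). So 2 of the 5 came from the chaperone lists. The share of list genes among the 1564 probe sets was not counted. Their number among the 5 nearest to a gene, here and below, is therefore not read as a result. The group means of Hop2 had the same order as those of Hop3, ending with 8.56 in xrn3-8 and 8.94 in Col-0 after cordycepin.

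Nearest to ATHSP22.0 were AT4G08280 (r = 0.949), LEA4-5 (0.949), AT5G12000 (0.949), AT2G33420 (0.947) and AT1G04420 (0.939), none of them in the chaperone lists. LEA4-5 encodes a late embryogenesis abundant protein, a class known for accumulating in drying tissues. Its group means were 4.37 in Col-0 before cordycepin, 4.87 in Col-0 after it, 4.91 in xrn3-8 before it and 5.53 in xrn3-8 after it, the same order as for ATHSP22.0. Nearest to AT1G54050 were AT1G21550, a gene of a calcium-binding protein with EF hands (r = 0.967), AT1G72790 (0.96), AT2G24330 (0.957), AT5G05710 (0.955) and AT3G09085 (0.947). The group means of AT1G21550 were 8.23, 6.42, 8.39 and 7.94 in the same order of groups, with a low value in Col-0 after cordycepin alone. None of these 5 was in the chaperone lists either.

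Of the genes next to the 3 chaperone genes in the order of the reference annotation, 1 of 6 had a named probe set. Hop3 lies between PME1, whose annotated span overlaps its own, and the tRNA gene AT4G12405. AT1G54050 lies between ESP and ASIL1. ATHSP22.0 lies between bbx23 and AT4G10260, a gene of the fructokinase family, which was the neighbour measured. The log2 signal of AT4G10260 was 2.69, 2.83 and 2.97 in Col-0 before cordycepin and 2.91, 3.30 and 3.34 in xrn3-8. These arrays, near the lower quartile, overlapped slightly, and the log2 difference of 0.35 ± 0.129 passed the test (adjusted p = 0.0457). After cordycepin the difference was -0.06 (adjusted p = 0.793), where that of ATHSP22.0 was 1.15. The neighbour rose over time in Col-0 by 0.56 (adjusted p = 0.00184) and changed in xrn3-8 by 0.15 (adjusted p = 0.373).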

How the data were processed

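The authors deposited a log2 signal for each probe set on each of 12 Affymetrix arrays. The tools named are affy 1.48.0 and limma 3.26.9, per the submitters' processing notes; background correction, normalization and summary are not given in the sources used here. The number of arrays limits the precision. Each p-value sets a difference against 1 spread per probe set, pooled over the 3 biological replicates of all 4 groups. A prior over all probe sets moderates that spread. Of 22810 probe sets, 64 controls were left out and 22746 tested. The probe table names 1 gene for 13513 of them, several for 503 and none for 8730, which were tested but stay unnamed; 13436 were matched by gene identifier to the reference table (assembly TAIR10.1), which gave the names and the gene order. Where a gene had several probe sets, the one with the highest mean was used.

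Group means over all 12 arrays were estimated together by lmFit of limma 3.58.1 (R 4.3.3), and eBayes added 7.964 prior to 8 residual degrees of freedom. The 5 two-sided contrasts were adjusted by Benjamini-Hochberg over all 22746 probe sets each. The script was tested on simulated data. The members and lists were chosen with earlier results of these data known. Named were every measured small heat shock protein, HOP and HSP90 gene, the neighbours, up to 4 called genes per direction and contrast over the other lists, and the 5 probe sets most like each member. Alternatives were the replicate block, a signal-dependent prior, array weights, leaving out the 40% dimmest probe sets, quantile normalization, centring on 4 housekeeping genes or 27 Bacillus control probe sets, a threshold of 0.01, leaving out cross-hybridizing probe sets, and leaving out each array in turn. Same-numbered replicates were not treated as pairs: over 18 pairs their deviations correlated at -0.086 to 0.176.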

Additional observations from a re-analysis of the deposited data

Results flagged for a closer look

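For 7 of the chaperone genes named by the naming rule the change after cordycepin in xrn3-8 minus that in Col-0 passed limma's test of the interaction. SGT1A, named outside that rule, passed too. The log2 values were 1.25 for AT5G37670 (adjusted p = 0.00381), 0.82 for Fes1A (adjusted p = 0.00452), 0.68 for AT2G20560 (adjusted p = 0.0256), 0.63 for AT3G09440 (adjusted p = 0.0053), 0.50 for AT1G52560 (adjusted p = 0.0384), 0.44 for AT3G12050 (adjusted p = 0.0447) and -0.48 for AT3G02530 (adjusted p = 0.0115). The calls of AT1G52560, AT3G12050 and SGT1A were lost under both centrings, and those of AT2G20560 and AT3G09440 under Bacillus centring. Groups of 3 arrays are too small for a test of single outlying arrays, and none was run.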

How the results depend on the processing

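The counts of called chaperone genes were 16 and 19 for the genotype differences before and after cordycepin, 31 and 31 for the changes in Col-0 and xrn3-8, and 8 for the interaction. At an adjusted p under 0.01 the count after cordycepin was 12, and with housekeeping centring that for xrn3-8 over time was 19. The interaction count was 13 with a signal-dependent prior, 5 with housekeeping centring, 3 with Bacillus centring and 3 at an adjusted p under 0.01, and it ran from 4 to 13 with 1 array left out. Centring moved the changes over time by construction. With housekeeping centring they became 0.025 and 0.675 (Hop3, Col-0 and xrn3-8), 0.34 and 0.57 (ATHSP22.0) and -2.02 and -0.68 (AT1G54050), and with Bacillus centring 0.073 and 0.603, 0.38 and 0.50, and -1.97 and -0.75. In xrn3-8 over time Hop1 turned to -0.20 (housekeeping) and -0.27 (Bacillus), and AT5G51440, AT1G52560 and AT2G19310 to -0.007, -0.057 and -0.05 (Bacillus). With the replicate block the counts were 17, 18, 32, 31 and 11, and all 61 named gene values kept their call. Same-numbered arrays matched best in 11 of 18 pairs, with 4 correlations over 0.1. Between the genotypes at the same time every array matched its own number best, at correlations of 0.02 to 0.12. Between the 2 times of a genotype most did not. The reason was not tested. Of the 61 values, 44 kept direction and call under each centring, 50 at the stricter threshold, and 59 to 61 under the other fits on all probe sets; all 57 left without the dimmest probe sets did too. Leaving out 1 array cost 11 of the 61 their call at least once and reversed none. The cause of the other shifts was not tested. Dim signals, as for AT1G52560, AT5G47600 and AT5G37670 in Col-0 after cordycepin, limit the size of a log2 difference.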
